A study of Mus musculus with 65 samples.

Results

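The interferon regulatory factors are the transcription factors that turn on type I interferon genes and the genes that interferons induce. Their transcripts were followed here in mouse dendritic cells and in a macrophage line. The members were the 8 symbols Irf1, Irf2, Irf3, Irf4, Irf5, Irf7, Irf8 and Irf9 among the 23755 genes of the count table, chosen by name and not by value, and all 8 passed the filter on low counts in each of the 3 experiments.

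The table covered 65 polyA RNA sequencing libraries in 19 groups. One experiment used bone marrow derived dendritic cells of C57BL/6 background that were MyD88KO, TrifKO or wild type (WT). Lipopolysaccharide (LPS), a bacterial product that the receptor TLR4 binds, was given at 100 ng/mL, and cells were taken untreated (0 h), at 2 h and at 4 h. MyD88KO and TrifKO groups held 3 libraries each, and WT groups held 6, 5 and 6 libraries at 0 h, 2 h and 4 h. A second experiment used untreated dendritic cells of the same strain that were Suv39h1KO, IfnarKO, Suv39h1KO IfnarKO or WT for both genes, with 3 libraries each. The last used RAW264.7 cells, a macrophage line labelled with the BALB/c strain, that carried gRNA_1, gRNA_2 or gRNA_Ctrl, at 0 h and at 2 h of LPS, with 3 libraries each. The targets of the guides, whether the guided cells were clones or pools, the alleles of the knockouts and the age of the mice were not given in the sources used here, and the LPS dose is stated for the dendritic cells only. The design speaks of biological replicates, but up to 2 WT libraries share a cohort number without it being said whether they share cells. Each was used as a sample of its own, which can make p-values too small. The main fit also does not pair libraries by cohort number, which can make p-values too large. With the cohort number added to the fit, 24 member values came to pass the threshold and 0 ceased to.

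Interferon regulatory factors share a DNA-binding domain that recognises repeats of the letters GAAA, found in interferon-stimulated response elements. IRF3 and IRF7 wait in the cytoplasm, are phosphorylated by the kinases TBK1 and IKKε below adaptors such as TRIF, and then switch on interferon-beta and interferon-alpha genes. Secreted interferon acts through the receptor IFNAR and a complex that holds STAT2 and IRF9, which raises Irf7 and closes a positive loop. IRF1 and IRF2 are an activator and a mainly repressing partner at the same sites. IRF5 acts below MyD88 on inflammatory cytokines, and IRF4 and IRF8 are lineage factors of dendritic cell subsets that need partners such as PU.1 and BATF to bind.

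Total counts per library ranged from 36.9 M to 95.3 M with a median of 54.7 M. The members' lowest counts were 29 to 106 for Irf4 in untreated RAW264.7 cells and 42 to 90 for Irf7 in cells without the interferon receptor, where counting error is part of the spread. Levels are CPM scaled by the TMM factors of their own experiment. The conventional dendritic cell markers Flt3, Zbtb46, Itgax, H2-Ab1, Ccr7, Kmo and Dpp4 all exceeded 1 CPM in each LPS-treated and untreated dendritic cell group of the LPS experiment. Macrophage and monocyte markers were high as well, with Lyz2 at 5898 CPM in WT cells at 0 h, and mixed cells and cells with both programmes cannot be told apart in bulk. In RAW264.7 cells with gRNA_Ctrl at 0 h Flt3 and H2-Ab1 had 0 counts and Lyz2 3703 CPM. Of the 7 conventional dendritic cell markers 1 exceeded 1 CPM in these cells. Of 10 macrophage and monocyte markers 7 did and 1 had 0 counts. Of 10 and 8 markers listed for the dendritic cell subsets that depend on IRF8 and IRF4, 7 and 4 did. Sample titles call these cells dendritic, while the cell type label names the macrophage line. Myd88 was 46.2 to 48.6 CPM in MyD88KO cells at 0 h, against 72.2 to 80.7 CPM in WT cells. Ticam1, the gene of TRIF, was 29.8 to 50.3 CPM in 7 of 9 TrifKO libraries, against 25.02 to 58.4 CPM in WT libraries, and was 2.94 and 2.46 CPM in TrifKO replicate 3 at 2 h and 4 h. Whether the allele removes the transcript is not given, so results for TrifKO are also given with 1 of those libraries left out. No fit left out both. Xist, which is expressed in female cells, was above 1000 CPM in 4 TrifKO libraries and at most 0.0378 CPM in the other 5, and within each of the 3 cohort numbers both kinds occurred. TrifKO libraries with the same cohort number thus did not all hold cells of the same sex, and whether the labels of these libraries are right was not tested. MyD88KO libraries belong to a set with low library numbers and TrifKO libraries to a set with high ones, and WT libraries are in both sets. No member was called different between the WT libraries of the high and the low set at any time (0 of 8 by edgeR, where 0.32%, 3.26% and 1% of all genes were called at 0 h, 2 h and 4 h). Each set held 3 WT libraries per time, except 2 in the low set at 2 h, so differences between the sets can be missed. Irf4 came nearest by adjusted p, 0.70 and 0.71 higher in the high set at 2 h and 4 h (edgeR adjusted p = 0.088 and 0.076), with 547 to 565 CPM in the high set and 259 to 418 CPM in the low set at 4 h. Irf7 was 0.73 and 0.87 higher in the high set at 0 h and 2 h. Irf8 was 0.68 and Irf1 0.63 higher there at 2 h. Irf9 at 0 h had 72.8 to 75.4 CPM in the high set and 55.7 to 70.2 CPM in the low set, without overlap.

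Promoter windows of 250 bases before the start of each gene (RefSeq, GRCm38.p6) were searched on both strands for the IRF site GAAANNGAAA, the STAT site TTCNNNGAA with its longer form TTCNNNNGAA, the NF-κB site and the AP-1 site TGANTCA. All 8 members matched the table. Stretches are shown for members that moved with LPS, to let the letters be read beside the levels, 5′ to 3′ on the strand of the gene with motif matches in capitals. Irf1 (chr11:53769914-53770013, plus strand, 100 bases up to the start) holds a STAT site and an NF-κB site, Irf2 (chr8:46739495-46739544, plus strand, where the window overlaps an exon of Gm16675) an IRF site and a STAT site, with an NF-κB site nearer the start that is not shown, and Irf8 (chr8:120736178-120736217, plus strand) 2 STAT sites. The stretch of Irf7 (chr7:141266500-141266674, minus strand) is shown because no searched letters were found in its window although its transcript moved most in WT dendritic cells.
Irf1: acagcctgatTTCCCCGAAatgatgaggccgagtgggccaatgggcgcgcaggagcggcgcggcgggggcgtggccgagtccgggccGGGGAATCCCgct
Irf2: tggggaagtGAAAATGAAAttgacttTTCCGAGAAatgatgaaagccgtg
Irf8: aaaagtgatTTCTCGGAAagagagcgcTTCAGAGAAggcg
Irf7: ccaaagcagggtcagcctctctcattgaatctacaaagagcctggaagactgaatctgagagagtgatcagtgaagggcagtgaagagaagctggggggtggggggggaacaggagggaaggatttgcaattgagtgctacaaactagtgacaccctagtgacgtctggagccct
Of 32851 promoter windows of the same length, 2.98% held the IRF site, 7.02% the STAT site, 5.85% its longer form, 3.90% the NF-κB site and 6.75% the AP-1 site. No searched motif was found in the windows of Irf3, Irf4, Irf5, Irf7 and Irf9, which says only that these letters are not in these windows.

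With TMM scaling, LPS raised nearly the whole family in WT dendritic cells, with the interferon-loop member Irf7 far ahead, and lowered only Irf3, slightly. By 2 h Irf1, Irf4, Irf7, Irf8 and Irf9 had risen, 5 of 8 members, where 21.3% of all genes tested rose. By 4 h 7 of 8 members had risen and Irf3 had fallen, where 65.1% of all genes were called in either direction. Between 2 h and 4 h Irf2, Irf7, Irf8 and Irf9 rose and Irf3 fell, 5 of 8 members where 35.8% of all genes were called. The step of Irf9 was lost with library totals in place of TMM factors (0.19, adjusted p = 0.072) and that of Irf3 with the low set of WT libraries alone (-0.25, adjusted p = 0.28). The median log2 fold change of the 8 members was 0.99 at 2 h and 1.65 at 4 h, against -0.05 and -0.07 over all genes.

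Irf7, whose protein makes most interferon-alpha transcription possible, ranged in WT cells from 8.60 to 22.9 CPM at 0 h with a median of 12.3 CPM. At 2 h the 5 WT libraries had 55.5, 123.04, 204, 212 and 72.3 CPM. At 4 h WT values lay between 528 and 1076 CPM with a median of 855 CPM. The 3 times did not overlap, and the rise was 3.21 ± 0.34 at 2 h (log2 ± SE, edgeR adjusted p = 5.5e-09) and 5.86 ± 0.37 at 4 h (adjusted p = 5.4e-14). Between 2 h and 4 h it still gained 2.64 ± 0.34 (adjusted p = 7.5e-07). Irf9, the DNA-binding subunit of the complex with STAT2, had 152, 196, 189, 193 and 175 CPM at 2 h and 222 to 269 CPM at 4 h, against 55.7 to 75.4 CPM at 0 h. It rose by 1.39 ± 0.09 at 2 h and 1.84 ± 0.09 at 4 h (edgeR adjusted p = 5.9e-13 and 2.2e-16), and all libraries after LPS lay above all untreated ones.

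Irf1, the activator that responds directly to NF-κB, reached its level early. It had 411, 593, 902, 950 and 480 CPM at 2 h and 610 to 838 CPM (median 694 CPM) at 4 h, against 84.4 to 130 CPM at 0 h. The rise was 2.61 ± 0.22 at 2 h and 2.71 ± 0.21 at 4 h (edgeR adjusted p = 6.7e-11 and 4.9e-12), and the change between those times, 0.10, did not pass. Irf2, which competes with IRF1 for its sites, came later. It had 40.4, 53.7, 59.6, 63.3 and 38.3 CPM at 2 h, spread on both sides of the 47.5 to 56.1 CPM at 0 h, and 124 to 158 CPM at 4 h. Its change was -0.02 ± 0.10 at 2 h (adjusted p = 0.87; -0.42 and adjusted p = 2.2e-04 with library totals) and 1.47 ± 0.09 at 4 h (adjusted p = 8.1e-14).

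Irf3 and Irf5 encode factors that are present before the stimulus and act by phosphorylation. Irf3 had 34.8 to 51.8 CPM at 4 h with a median of 39.3 CPM, against 42.4 to 54.2 CPM at 0 h, so that the groups overlapped. It fell by 0.28 on the log2 scale (SE 0.09, edgeR adjusted p = 0.0082). Without WT replicate 6 at 4 h the fall was -0.21 and did not pass (adjusted p = 0.052), nor did it with the low set of WT libraries alone (-0.14, adjusted p = 0.42). Irf5 had 563 to 665 CPM at 4 h, against 391 to 495 CPM at 0 h, without overlap, and rose by 0.44 ± 0.12 (adjusted p = 0.0014). These small changes depend on the scaling, because library totals put the median of all genes 0.64 lower at 4 h than TMM factors do. With library totals Irf5 changed by -0.21 at 4 h (adjusted p = 0.13) and Irf3 by -0.35 at 2 h (adjusted p = 0.004), where TMM scaling gave 0.04 (adjusted p = 0.79). The fall of Irf3 at 4 h was larger by library totals. It had 25.6 to 38.8 CPM at 4 h, against 48.9 to 67.9 CPM at 0 h, without overlap.

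Irf4 and Irf8, the factors tied to dendritic cell subsets, also rose. Irf8 had 380, 326, 622, 708 and 368 CPM at 2 h and 719 to 1313 CPM at 4 h, against 214 to 338 CPM at 0 h. The 2 h libraries overlapped the untreated ones in range and the 4 h libraries did not. Irf8 rose by 0.84 ± 0.21 at 2 h and 1.83 ± 0.21 at 4 h (edgeR adjusted p = 0.0015 and 7.5e-09). The 2 h call was lost with the low set of WT libraries alone, which held 2 libraries at 2 h (0.56, adjusted p = 0.12). Irf4 had 207, 358, 410, 396 and 576 CPM at 2 h and 259 to 565 CPM at 4 h, against 129 to 216 CPM at 0 h, and rose by 1.14 ± 0.19 and 1.34 ± 0.19 (adjusted p = 1.4e-05 and 2.9e-07). The summed level of 8 plasmacytoid dendritic cell markers, cells known for high Irf7 and Irf8, was 114 to 224 CPM at 4 h, against 41.7 to 62.1 CPM at 0 h. Tcf4 made up most of it, Tcf4 and Ccr9 rose, Siglech and Pacsin1 fell, and the defining marker Siglech averaged 0.025 CPM at 4 h and 0.112 CPM at 0 h. In such bulk libraries more cells of a type and more RNA per cell cannot be told apart.

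**Figure D1:**
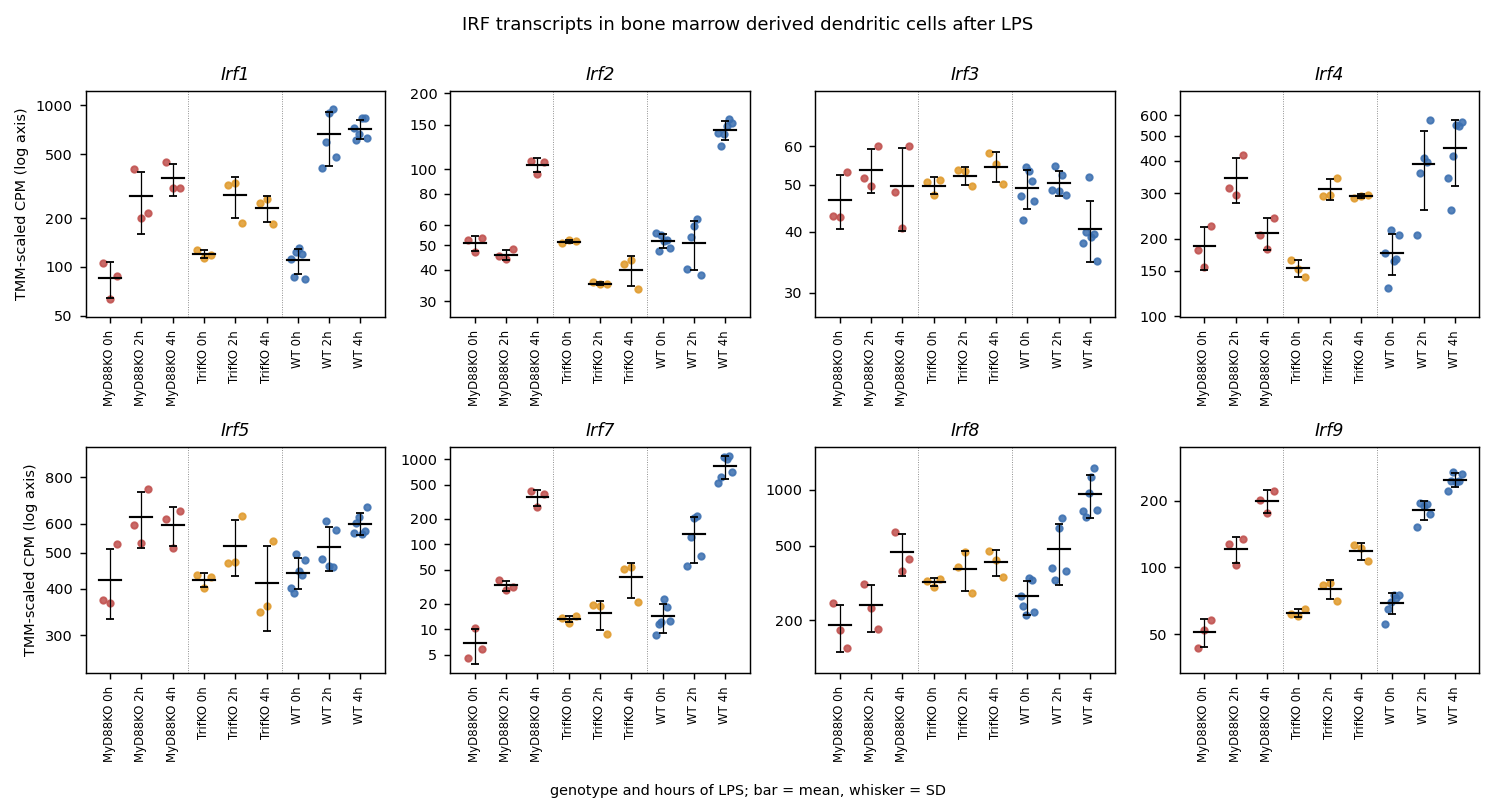
TMM-scaled CPM (log axis) of the 8 members in MyD88KO, TrifKO and WT dendritic cells by hours of LPS; each point is a library, the bar the group mean and the whisker the SD. Irf7 reaches 528 to 1076 CPM in WT cells at 4 h and 20.8 to 53.4 CPM in TrifKO cells, while Irf3 stays within 34.8 to 60.0 CPM in all groups.

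Set per kilobase of transcript, which allows genes to be compared, Irf7 moved from last in WT cells at 0 h to first at 4 h. Irf5 had the highest level in WT cells at 0 h, 197 ± 18 CPM per kb, followed by Irf8 with 94.2 ± 19.03, Irf1 with 51.3 ± 9.2 and Irf4 with 37.0 ± 6.7 CPM per kb (SD, n = 6 libraries), and Irf7 was last with 7.50 ± 2.76 CPM per kb. At 4 h Irf7 was first with 434 ± 129 CPM per kb, and Irf1 and Irf8 followed with 335 ± 47 and 334 ± 86 CPM per kb. The libraries of Irf7 and Irf1, of Irf1 and Irf8, and of Irf8 and Irf5 overlapped at 4 h, so these neighbours in the order did not differ beyond their spread. The lowest Irf7 library, 275 CPM per kb, also lay under the highest Irf5 library, 297 CPM per kb. The share of Irf7 in the summed family was 26.4% in WT cells at 4 h and 1.63% at 0 h, and that of Irf5 was 16.3% at 4 h and 42.8% at 0 h. The order rests on 1 transcript length per gene. Taking the union of all exons puts Irf4 higher at 0 h and Irf5 first at 2 h. At 4 h Irf7 was first by both lengths, and by the union of exons Irf5 came directly after it, before Irf1 and Irf8.

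**Figure D2:**
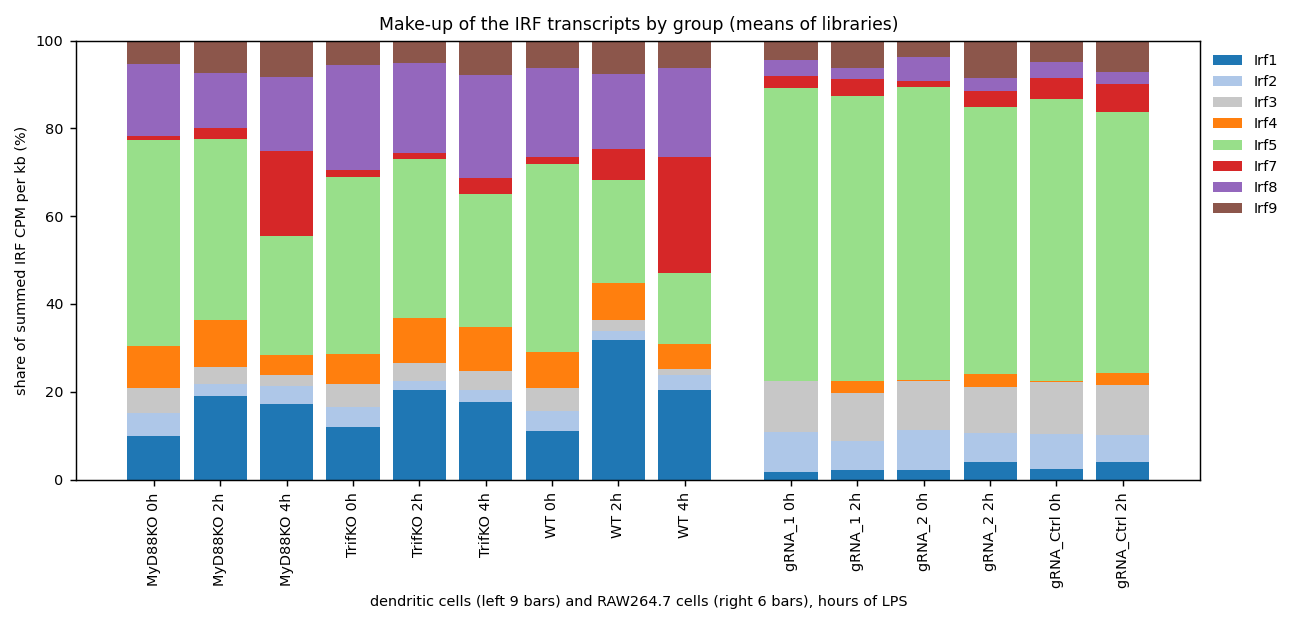
Share of each member in the summed IRF level (CPM per kb of the principal transcript, group means) in MyD88KO, TrifKO and WT dendritic cells and in RAW264.7 cells by guide and hours of LPS. Irf7 takes 19.4% in MyD88KO cells, 3.54% in TrifKO cells and 26.4% in WT cells at 4 h, and Irf5 takes 59.4% to 66.8% in RAW264.7 cells.

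The comparison of TrifKO with WT cells asks which of these rises need the adaptor through which TLR4 reaches IRF3. The rises of Irf7, Irf2, Irf1, Irf8 and Irf9 were all smaller without it, and those of Irf7 and Irf2 by most. At 0 h no member differed between TrifKO and WT cells, nor did any gene (0.0% of 14475 called by edgeR, 515 genes and 0 members at an unadjusted p under 0.05, 0 by DESeq2). At 4 h, where 33.2% of all genes were called, all 8 members differed: Irf3 was higher in TrifKO cells and the other 7 lower. At 2 h Irf1, Irf2, Irf7 and Irf9 were lower, 4 of 8 where 2.54% of all genes were lower. Within TrifKO cells Irf1, Irf4 and Irf9 rose and Irf2 fell from 0 h to 2 h, 4 of 8 where 20.7% of all genes were called. By 4 h Irf1, Irf4, Irf7 and Irf9 had risen and Irf2 had fallen, 5 of 8 where 25.9% were. The 2 h call of Irf9 was lost without any of 5 of 6 libraries, and the 4 h calls of Irf1 and Irf2 without any of 3 and 4 of 6. From 2 h to 4 h Irf9 alone rose (0.57, edgeR adjusted p = 0.018), where 0.594% of all genes did, a call lost without any of 4 of 6 libraries. Irf7 did not pass there (1.40, adjusted p = 0.12) and passed without TrifKO replicate 3 at 4 h (1.73, adjusted p = 0.041). That fit kept replicate 3 at 2 h, the lowest there with 8.81 CPM, against 18.8 and 19.5 CPM in the others. No fit left out replicate 3 at both times. Over single libraries left out the step of Irf7 ranged from 1.12 to 1.73. As differences of response from 0 h, 3 members were lower at 2 h, where 1.25% of all genes were, and 5 at 4 h, where 9.3% were. At 4 h the median difference of the 8 was -1.20, against 0.06 over all genes.

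Irf7 had 50.4, 53.4 and 20.8 CPM in TrifKO cells at 4 h, against 528 to 1076 CPM in WT cells. Every TrifKO library lay more than an order of magnitude below the median of WT libraries. Irf7 was -4.32 ± 0.47 in TrifKO over WT cells at 4 h and its response differed by -4.21 ± 0.55 (edgeR adjusted p = 2.4e-08 and 2.2e-06). At 2 h the response difference was -2.97 ± 0.55 (adjusted p = 0.0015). A rise of Irf7 within TrifKO cells did not pass at 2 h, 0.24 ± 0.43 (adjusted p = 0.75), but passed at 4 h, 1.65 ± 0.44 (adjusted p = 0.0063). Irf9 had 126, 122.9 and 107 CPM in TrifKO cells at 4 h, against 222 to 269 CPM in WT cells. The groups did not overlap, yet Irf9 still rose within TrifKO cells by 0.92 ± 0.12 (adjusted p = 3.6e-06), and its response differed by -0.92 ± 0.15 at 4 h and -1.04 ± 0.15 at 2 h (adjusted p = 5.5e-05 and 9.5e-05).

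Irf2 had 41.99, 43.8 and 33.7 CPM in TrifKO cells at 4 h, against 124 to 158 CPM in WT cells. The late rise seen in WT cells was absent: all 3 TrifKO libraries lay below the 50.9, 52.4 and 51.9 CPM of TrifKO cells at 0 h, and Irf2 fell within TrifKO cells by 0.38 at 4 h (edgeR adjusted p = 0.034), a call lost without any of 4 of the 6 libraries. The response differed by -1.85 ± 0.16 (adjusted p = 6.1e-09). Irf1 had 248, 264 and 184 CPM in TrifKO cells at 4 h, against 610 to 838 CPM in WT cells, and its response differed by -1.76 ± 0.35 (adjusted p = 5.8e-04). Irf1 still rose within TrifKO cells, by 1.22 ± 0.29 at 2 h and 0.95 at 4 h (adjusted p = 0.0025 and 0.014), the second lost without TrifKO replicate 2 at 0 h or replicate 1 or 2 at 4 h (0.85 to 0.91). Its response difference at 2 h, -1.38 ± 0.35 (adjusted p = 0.04), was lost when any of 11 of the 17 libraries was left out (-1.52 to -1.16).

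Irf8 had 469, 419 and 339 CPM in TrifKO cells at 4 h, against 719 to 1313 CPM in WT cells, without overlap. Its response differed by -1.47 ± 0.35 (edgeR adjusted p = 0.0035). Irf4 had 287, 294 and 296.4 CPM in TrifKO cells, within the 259 to 565 CPM of all WT libraries and below the 547 to 565 CPM of the WT libraries of their own high set. It rose within TrifKO cells by 0.93 at 4 h (adjusted p = 0.009), and its response difference did not pass (-0.41, adjusted p = 0.41). Against the high WT set alone that difference passed (-0.70, adjusted p = 0.028), as did the difference of TrifKO from WT cells at 2 h (-0.57, adjusted p = 0.032). Irf5 had 347, 361 and 540 CPM in TrifKO cells at 4 h, against 563 to 665 CPM in WT cells, a difference of -0.53 ± 0.14 (adjusted p = 0.005) that was lost without TrifKO replicate 2 (-0.43, adjusted p = 0.054) and with library totals (-0.14, adjusted p = 0.46). Irf3 was the one member higher in TrifKO cells at 4 h, with 57.9, 55.1 and 50.2 CPM, against 34.8 to 51.8 CPM in WT cells (0.43 ± 0.11, adjusted p = 0.0028). That call was lost without TrifKO replicate 1 (0.34, adjusted p = 0.051).

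TrifKO replicate 3 was low in Ticam1 at 2 h and 4 h but not at 0 h (31.7 CPM). At both of these later times it was the lowest TrifKO library in Irf1, Irf3, Irf7, Irf8 and Irf9 and the highest in Irf4 and Irf5. Only replicate 3 of the time in question was left out in what follows. Without it the 4 h response differences were -3.89 for Irf7, -1.74 for Irf2, -1.61 for Irf1, -1.35 for Irf8 and -0.85 for Irf9, all past the edgeR threshold. The response difference of Irf5, -0.46 with all libraries, then passed as well (-0.70, adjusted p = 0.015). At 2 h those of Irf7 and Irf9 were -2.69 and -0.95 and passed, and that of Irf1 was -1.16 and did not (adjusted p = 0.22). The 4 h difference of Irf4 between TrifKO and WT cells, -0.61, was lost without any of 6 of 9 libraries, replicate 3 of TrifKO among them (-0.62, adjusted p = 0.086), and with library totals (-0.21, adjusted p = 0.43). With the cohort number as a block, which pairs WT and MyD88KO libraries but TrifKO libraries hardly, the response differences of Irf5 and Irf3 passed as well at 4 h (-0.49 and 0.41, adjusted p = 0.0036 and 0.045). The summed plasmacytoid markers were 50.6 to 59.8 CPM in TrifKO cells at 4 h, against 114 to 224 CPM in WT cells, and their part in these results was not tested.

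The comparison of MyD88KO with WT cells asks the same of the other adaptor of TLR4. Most members rose without MyD88, Irf7 included, to levels below those of WT cells. By 4 h the response of Irf4 alone was called different, and not when WT cells of the same library set were used. At 0 h no member was called by edgeR, where 0.0622% of all genes were (2 members at an unadjusted p under 0.05, and 1, Irf9, by DESeq2). At 2 h Irf1, Irf7, Irf8 and Irf9 were lower in MyD88KO cells, where 7.03% of all genes were. At 4 h 7 of 8 members differed, where 28.4% of all genes were called, and only Irf5 did not (-0.01). Within MyD88KO cells Irf1, Irf4, Irf5, Irf7 and Irf9 had risen at 2 h, and Irf1, Irf2, Irf5, Irf7, Irf8 and Irf9 at 4 h, where 8.83% and 17.1% of all genes rose. Irf2, Irf7, Irf8 and Irf9 rose between 2 h and 4 h, where 7.47% of all genes did. The calls of Irf5 in MyD88KO cells, 0.56 and 0.49, were lost with library totals in place of TMM scaling (0.34 and 0.14), and without any of 3 of 6 libraries at 2 h and of 4 of 6 at 4 h. The 2 h call of Irf4 was likewise lost without any of 3 of 6 libraries, and that of Irf8 between 2 h and 4 h without any of 4 of 6.

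Irf4 had 206, 182 and 241 CPM in MyD88KO cells at 4 h, against 259 to 565 CPM in WT cells, so that no library overlapped. At 2 h the MyD88KO libraries had 313, 294 and 421 CPM, among the 207, 358, 410, 396 and 576 CPM of WT cells. Irf4 thus rose in MyD88KO cells at 2 h (0.88 ± 0.26, edgeR adjusted p = 0.019) and was not called against 0 h at 4 h (0.17 ± 0.26, adjusted p = 0.65). Its 4 h response differed from that of WT cells by -1.17 ± 0.32 (adjusted p = 0.023), 1 member where 4.39% of all genes were lower. The difference was lost without MyD88KO replicate 3 at 0 h or replicate 1 or 2 at 4 h (-1.16 to -1.02), with library totals (-0.86, adjusted p = 0.059) and against the low set of WT libraries alone (-0.79, adjusted p = 0.24), which stands beside -0.70 for TrifKO cells against the high set. With library totals the response of Irf3 passed as well (0.67, adjusted p = 0.0095). With the block of set and cohort it passed together with Irf2 (-0.44, adjusted p = 0.023) and Irf3 (0.37, adjusted p = 0.0069).

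Irf7 had 37.7, 29.3 and 31.2 CPM in MyD88KO cells at 2 h, against 55.5, 123.04, 204, 212 and 72.3 CPM in WT cells, and all MyD88KO libraries lay lower (-2.03 ± 0.42, edgeR adjusted p = 0.0017). At 4 h it had 420, 274 and 390 CPM in MyD88KO cells, below the 528 to 1076 CPM of WT cells (-1.20 ± 0.39, adjusted p = 0.021). That call was lost without MyD88KO replicate 2 (-1.04, adjusted p = 0.12) and with library totals (-0.85, adjusted p = 0.05001). Yet the rise within MyD88KO cells, 5.70 ± 0.52 from 0 h to 4 h (adjusted p = 1.6e-09), stood beside 5.86 ± 0.37 in WT cells, and the response difference did not pass at either time. These rises began from unlike means. At 0 h Irf7 had 4.61 to 10.4 CPM in MyD88KO cells, against 8.60 to 22.9 CPM in WT cells. The mean was 0.49 times that of WT cells, the libraries overlapped and the difference was not called. At 2 h no member's response differed (0 of 8 by edgeR where 0.442% of all genes were called, 1 at an unadjusted p under 0.05, 0 by DESeq2).

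Irf1 had 448, 310 and 309 CPM in MyD88KO cells at 4 h, against 610 to 838 CPM in WT cells (-1.01 ± 0.26, edgeR adjusted p = 0.004). Irf8 had 597, 366 and 425 CPM in MyD88KO cells, against 719 to 1313 CPM in WT cells (-1.04 ± 0.26, adjusted p = 0.0033). Both were apart from WT cells in every library. Irf2 had 108, 96.2 and 107 CPM in MyD88KO cells at 4 h, also apart from the 124 to 158 CPM of WT cells (-0.47 ± 0.12, adjusted p = 0.0034; -0.12 and adjusted p = 0.35 with library totals), and had risen by 1.03 ± 0.13 within MyD88KO cells. Irf9 had 201, 175 and 222 CPM in MyD88KO cells, of which the highest reached the lowest of the 222 to 269 CPM of WT cells. Its difference of -0.32 ± 0.11 (adjusted p = 0.028) was lost without any of 4 libraries and was 0.03 with library totals (adjusted p = 0.85). Irf3 was 0.29 ± 0.11 higher (adjusted p = 0.043), a call lost without any of 7 of 9 libraries. Against the WT libraries of the low set alone, which share that set with MyD88KO, none of the 4 members passed at 2 h (Irf7 -1.45, adjusted p = 0.089) and 4 of 7 did at 4 h. The low set held only 2 WT libraries at 2 h, so the lost calls do not show that the differences were absent.

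**Figure D3:**
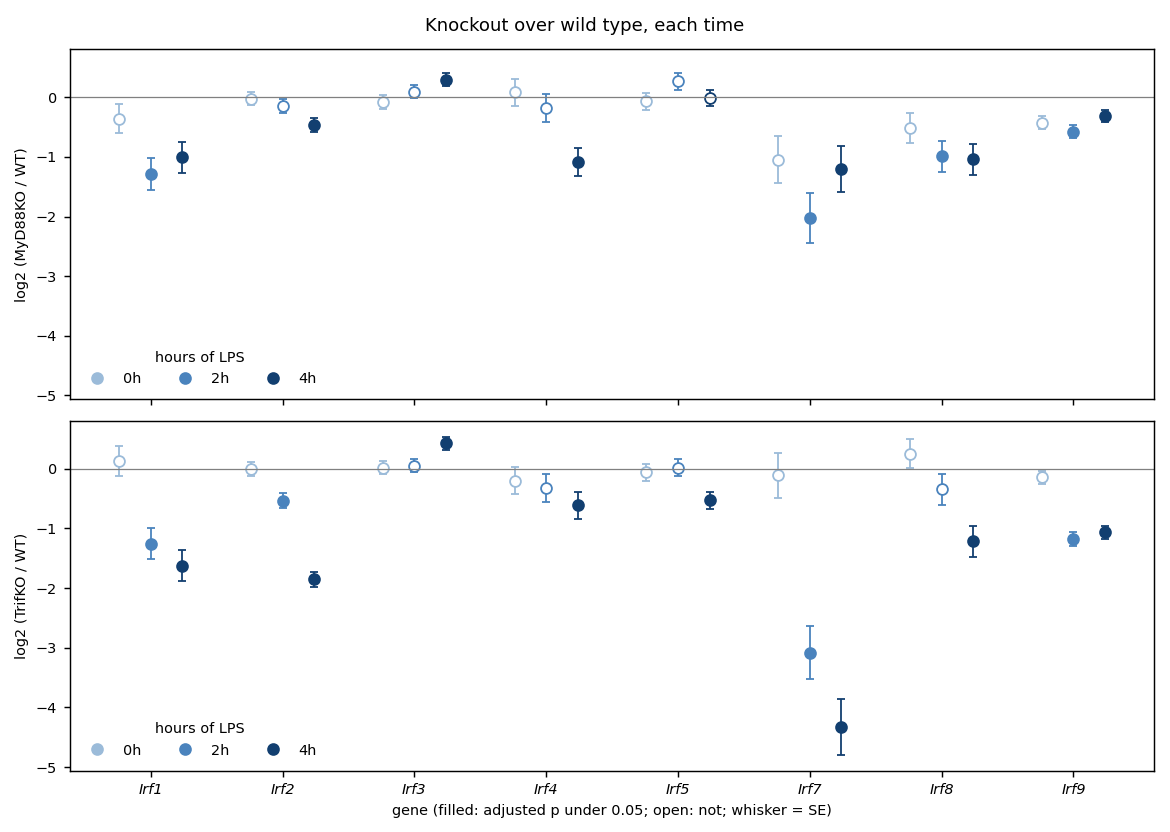
Log2 fold change of MyD88KO over WT cells (top) and TrifKO over WT cells (bottom) for each member at 0 h, 2 h and 4 h of LPS; filled points passed an adjusted p of 0.05 (edgeR) and whiskers are SE. Irf7 and Irf2 stand at -4.32 and -1.85 in TrifKO cells at 4 h, and at -1.20 and -0.47 in MyD88KO cells.

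Set against each other, each knockout over WT cells of its own library set, TrifKO and MyD88KO cells differed in 3 members at 4 h, where 4.95% of all genes were lower in TrifKO cells. Irf7 was -3.46 ± 0.58, Irf2 -1.58 ± 0.18 and Irf9 -0.78 ± 0.17 (edgeR adjusted p = 1.9e-04, 2.7e-06 and 0.0031), each lower in TrifKO cells. Without TrifKO replicate 3 at 4 h they were -3.13, -1.47 and -0.71. Irf5 then passed as well, lower in TrifKO cells (-0.75, adjusted p = 0.038). At 2 h no member passed (0 of 8 by edgeR where 0.551% of all genes were called, 4 at an unadjusted p under 0.05, 1 by DESeq2). The block of set and cohort called 4 members at 2 h and 6 at 4 h. Interferon-beta, Ifnb1, averaged 0.97 CPM in MyD88KO cells, 0.17 CPM in TrifKO cells and 5.57 CPM in WT cells at 4 h, and 3.45, 0.19 and 11.2 CPM in the same order of groups at 2 h.

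Known targets of the factors, listed from general knowledge and with earlier results of these data known, were counted in the same comparisons. In WT cells at 4 h all 8 tested IRF3 and IRF7 targets, 15 of 15 targets of the complex of STAT2 and IRF9, 15 of 15 IRF1 targets and 7 of 7 IRF5 targets rose, with median log2 fold changes of 6.83, 4.31, 2.95 and 6.87, against -0.07 over all genes. Of all genes 65.1% were called there in either direction, and 46.1% of those called rose. Among the targets that rose were the chemokine gene Cxcl10 (7.70 ± 0.37), the antiviral genes Ifit1 (7.07 ± 0.50) and Oasl1 (7.29 ± 0.35) and the cytokine gene Il6 (7.69 ± 0.44). The response of TrifKO cells at 4 h was lower than that of WT cells for 8 of 8, 15 of 15, 13 of 15 and 4 of 7 of these genes, with medians of -4.46, -3.35, -2.43 and -1.77, against 0.06 over all genes. Of all genes 9.3% were lower in that comparison. Cxcl10 differed by -5.19 ± 0.53 and Oasl1 by -3.87 ± 0.49. The response of MyD88KO cells at 4 h was lower for 0 of 8, 0 of 15, 2 of 15 and 6 of 7, with medians of 0.21, -0.17, -0.44 and -4.35, against 0.02 over all genes. Of all genes 4.39% were lower there. Il6 differed by -4.35 ± 0.61 and the interleukin gene Il1b by -3.44 ± 0.47, while the IRF3 target Ccl5 differed by -1.01 (edgeR adjusted p = 0.40). In the TrifKO minus MyD88KO comparison at 4 h 7 of 9 IRF3 and IRF7 targets and 15 of 15 targets of the complex were lower in TrifKO cells, and 5 of 7 IRF5 targets were higher. Of all 14696 genes 4.95% were lower there, and of the 1233 called in either direction 41% were higher.

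Genes upstream and beside the factors changed in a more mixed way. In WT cells at 4 h 65.1% of all genes were called, which is the share to set beside these counts. Of 17 adaptors and kinases upstream of IRF3, IRF5 and IRF7, 11 rose and 5 fell in WT cells at 4 h (median 0.63), with the kinase gene Ikbke at 2.88 ± 0.40 and Myd88 at 2.48 ± 0.07. Of 10 binding partners 7 rose and 1 fell, among them Stat2 (2.78 ± 0.20) and Batf (3.33 ± 0.33), whose protein binds with IRF4 and IRF8. The response of Batf was lower in MyD88KO cells by 3.63 (difference -3.63 ± 0.54, edgeR adjusted p = 1.1e-04) and did not pass in TrifKO cells (-0.73, adjusted p = 0.36), while that of Stat2 was lower in TrifKO cells (-1.76 ± 0.32). Of 7 interferon receptor and kinase genes 6 rose and Ifngr1 fell (-2.23 ± 0.15). Of 13 genes that restrain the factors or their signals 9 rose and 4 fell, with Socs3 at 5.08 ± 0.25 and Usp18 at 3.88 ± 0.23, and Usp18, which blocks the interferon receptor, was -2.93 ± 0.36 in the response of TrifKO cells.

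In untreated cells the question was whether the interferon receptor or the histone methyltransferase SUV39H1 sets the resting level of the family. Irf7 was far lower in cells without the receptor, and no member was called for the loss of Suv39h1. Irf9 was lower in each library without the receptor, did not pass in the main fit, and passed when libraries were paired by cohort number. Suv39h1 itself was 0.11 to 0.37 CPM in the groups labelled as its knockout, against 36.9 to 64.6 CPM in the others, and Ifnar1 was 122 to 161 CPM in the IfnarKO groups, against 173 to 218 CPM.

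Irf7 had 1.39, 1.10 and 0.923 CPM in IfnarKO cells, against 11.3, 13.6 and 17.9 CPM in WT cells. The groups were far apart, and the difference was -3.64 ± 0.45 (edgeR adjusted p = 0.0058), 1 of 8 members where 0.118% of all genes were lower. The call was lost without IfnarKO replicate 2 (-3.61, adjusted p = 0.059). With Suv39h1 absent as well, Irf7 had 1.37, 0.818 and 0.491 CPM in Suv39h1KO IfnarKO cells, against 12.1, 11.3 and 29.1 CPM in Suv39h1KO cells (-4.31 ± 0.46, adjusted p = 0.0025), where 0.153% of all genes were lower. Irf9 had 35.1, 33.1 and 36.8 CPM in IfnarKO cells, against 60.4, 53.2 and 73.9 CPM in WT cells, again without overlap. Its difference of -0.84 ± 0.16 missed the threshold (adjusted p = 0.14) and passed with the cohort number as a block (-0.82, adjusted p = 0.0017), which pairs the libraries of this experiment. Irf9 had 37.3, 36.5 and 41.2 CPM in Suv39h1KO IfnarKO cells, against 61.0, 63.1 and 91.0 CPM in Suv39h1KO cells (-0.90, adjusted p = 0.067; -0.88 and adjusted p = 8.6e-04 with the block), and it passed without Suv39h1KO replicate 1 (-1.01, adjusted p = 0.047). With the block Irf8 was 0.46 higher in that comparison (adjusted p = 0.041), against 0.47 without it (adjusted p = 0.98). Irf4 was also lower in each library, with 184 to 233 CPM in IfnarKO cells, against 234.7 to 267 CPM in WT cells, and 182 to 229 CPM in Suv39h1KO IfnarKO cells, against 256 to 264 CPM in Suv39h1KO cells, and did not pass (-0.22 and -0.34, adjusted p = 1.00 and 0.77). The summed level of 10 macrophage and monocyte markers moved with these comparisons, 12930 to 18715 CPM in IfnarKO cells, against 9537 to 12456 CPM in WT cells, and 11347 to 14881 CPM in Suv39h1KO IfnarKO cells, against 7955 to 9445 CPM in Suv39h1KO cells. All 10 were above 0 in each group, and their part in the results was not tested.

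Suv39h1KO cells had Irf7 at 12.1, 11.3 and 29.1 CPM, against 11.3, 13.6 and 17.9 CPM in WT cells, with overlap. No member was called in Suv39h1KO over WT cells or in Suv39h1KO IfnarKO over IfnarKO cells (0 of 8 by edgeR where 0.209% and 0.222% of all genes were called, 0 at an unadjusted p under 0.05, 0 by DESeq2). The interaction of both losses called no gene (0.0% by edgeR, 101 genes and 0 members at an unadjusted p under 0.05, 0 by DESeq2). Of the target lists, 4 of 7 IRF3 and IRF7 targets and 7 of 15 targets of the complex were lower in IfnarKO than in WT cells, with medians of -3.45 and -2.31, Ifit1 at -5.25 ± 0.64 and Oas1a at -6.86 ± 0.46. Of all genes 0.118% were lower in that comparison. No IRF1 or IRF5 target was called there, and Stat2 had -0.42 and did not pass.

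**Figure D4:**
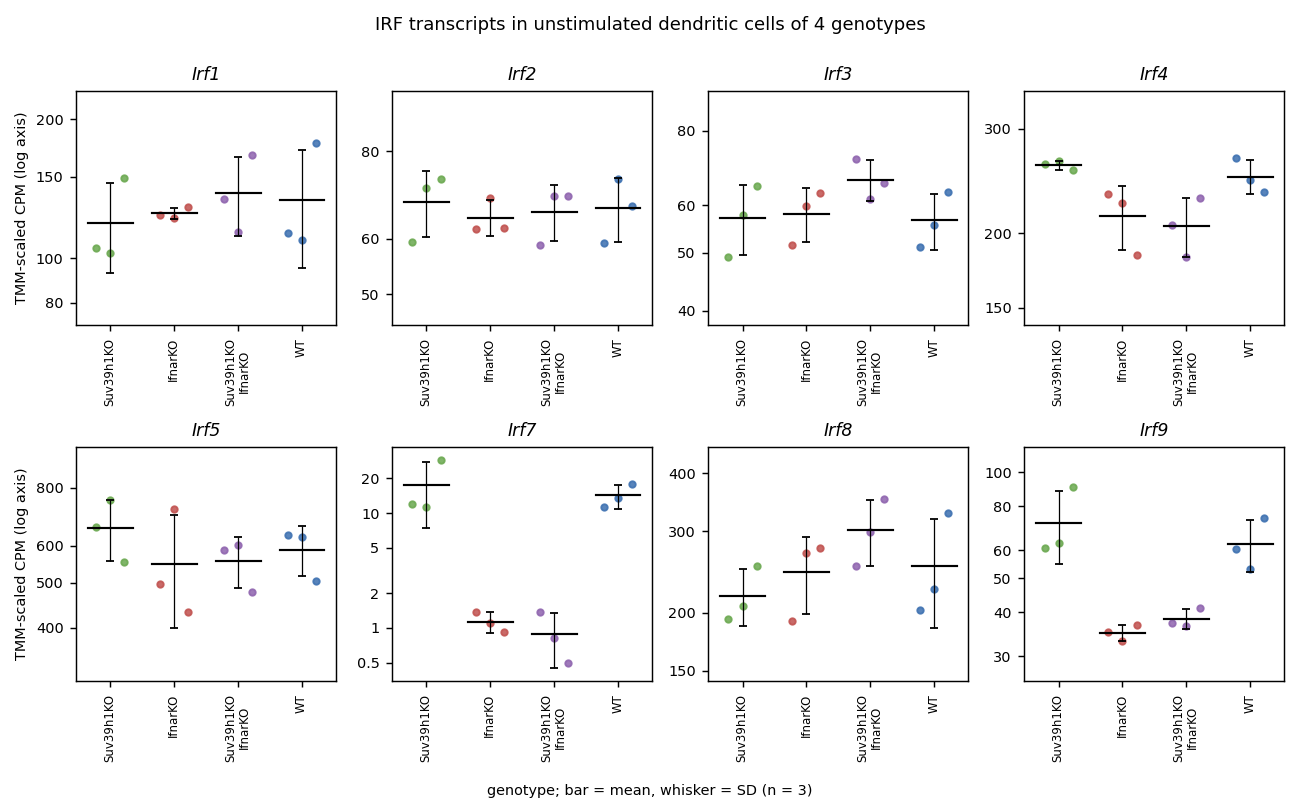
TMM-scaled CPM (log axis) of the 8 members in untreated Suv39h1KO, IfnarKO, Suv39h1KO IfnarKO and WT dendritic cells; each point is a library, bars are means and whiskers SD (n = 3). Irf7 lies between 0.491 and 1.39 CPM in the 2 groups without the receptor and between 11.3 and 29.1 CPM in the others.

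In RAW264.7 cells, as in untreated WT dendritic cells, Irf5 had the highest level, 110 ± 6 CPM per kb with gRNA_Ctrl at 0 h, before Irf3 with 20.1 ± 1.0, and Irf4 was last with 0.17 ± 0.06 CPM per kb (SD, n = 3 libraries). Irf4 then rose by more than any other member after 2 h of LPS, with all guides, while Irf8 and Irf2 fell. In gRNA_Ctrl cells 51.6% of all genes were called, and 4 of 8 members: Irf1 and Irf4 rose and Irf2 and Irf8 fell.

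Irf4 had 21.9, 17.7 and 28.9 CPM at 2 h in gRNA_Ctrl cells, against 0.708, 0.621 and 1.15 CPM at 0 h (4.81 ± 0.23, edgeR adjusted p = 1.7e-11). It had 20.6, 19.02 and 26.7 CPM at 2 h with gRNA_1, against 0.932, 0.972 and 1.04 CPM at 0 h (4.49 ± 0.22), and 23.6, 22.4 and 29.05 CPM with gRNA_2, against 1.31, 1.01 and 1.29 CPM (4.39 ± 0.21). In WT dendritic cells of the other experiment Irf4 was higher from the start and moved by 1.14 at 2 h, values fitted separately and set side by side. Irf8 had 11.6, 13.4 and 14.1 CPM at 2 h, against 17.5, 14.3 and 20.3 CPM at 0 h in gRNA_Ctrl cells (-0.42, adjusted p = 0.0069), a fall lost without gRNA_Ctrl replicate 3 at 0 h (-0.29, adjusted p = 0.054). Irf8 also fell with gRNA_1 (-0.57) and gRNA_2 (-0.85), where 51.3% and 50.8% of all genes were called. Irf2 fell by 0.39 to 0.50 with the 3 guides (-0.39, -0.46 and -0.50 in gRNA_Ctrl, gRNA_1 and gRNA_2), and the first was lost without any of 4 of 6 libraries.

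Irf1 had 12.9, 15.5 and 14.3 CPM at 2 h, against 8.56, 8.50 and 9.54 CPM at 0 h in gRNA_Ctrl cells, and rose by 0.69 ± 0.14 (edgeR adjusted p = 7e-04). Irf7 had 19.9, 19.8 and 21.2 CPM at 2 h, against 15.4, 13.9 and 16.1 CPM at 0 h, a small step without overlap that did not pass (0.42, adjusted p = 0.075) and passed with the cohort block (adjusted p = 0.042). Irf9 had 26.9, 34.8 and 26.5 CPM at 2 h, against 19.2, 20.2 and 22.6 CPM at 0 h, and did not pass (0.51, adjusted p = 0.12). With gRNA_2 all 3 rose, Irf1 by 0.91 ± 0.14, Irf7 by 1.21 ± 0.20 and Irf9 by 1.17 ± 0.27 (adjusted p = 5.1e-05, 8.2e-05 and 0.0015). With gRNA_1 Irf7 rose by 0.48 (adjusted p = 0.048), a call lost without any of 5 of 6 libraries and with library totals (0.31), and Irf1 (0.27) and Irf9 (0.47) did not pass. With library totals Irf5 passed as lower with all 3 guides, by -0.32 in gRNA_Ctrl cells (adjusted p = 0.0011), and Irf3 did as well (-0.26, adjusted p = 0.038). Of 8 IRF3 and IRF7 targets 7 rose at 2 h in gRNA_Ctrl cells (median 4.35), with Ccl5 at 7.63 ± 0.38. Of 14 targets of the complex 6 rose and 1 fell (median 0.46, against 0.00 over all genes), a share near the 51.6% of all genes called there.

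The guides are set against gRNA_Ctrl without knowing what they target. Irf7 was lower with gRNA_2 before LPS: it had 4.50, 3.98 and 8.10 CPM, against 15.4, 13.9 and 16.1 CPM with gRNA_Ctrl (-1.49 ± 0.20, edgeR adjusted p = 3.3e-04), where 4.53% of all genes were called. Irf8 was higher there, with 27.1, 30.9 and 25.5 CPM, against 17.5, 14.3 and 20.3 CPM (0.68 ± 0.12, adjusted p = 0.0024). With gRNA_1 Irf7 had 9.60, 7.95 and 9.997 CPM at 0 h, also below all gRNA_Ctrl libraries, a difference of -0.72 that missed the threshold (adjusted p = 0.067). No member was called for gRNA_1 at 0 h by edgeR, where 2.24% of all genes were (2 at an unadjusted p under 0.05, 1 by DESeq2).

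At 2 h Irf7 had 9.80, 14.7 and 12.98 CPM with gRNA_2, against 19.9, 19.8 and 21.2 CPM with gRNA_Ctrl (-0.70 ± 0.19, edgeR adjusted p = 0.041), where 2.42% of all genes were lower. That call was lost without any of 5 of 6 libraries (-0.73 to -0.55). With gRNA_1 at 2 h Irf1 was lower, with 7.99, 8.67 and 6.82 CPM, against 12.9, 15.5 and 14.3 CPM (-0.87 ± 0.14, adjusted p = 0.0022), where 1.48% of all genes were lower. No response to LPS differed between either guide and gRNA_Ctrl (0 of 8 members by edgeR for both, where 0.00765% and 0.0% of all genes were called, 0 and 2 at an unadjusted p under 0.05, 0 by DESeq2). With gRNA_2 at 0 h 7 of 14 targets of the complex of STAT2 and IRF9 were lower (median -0.63), among them Ifi44 (-2.02 ± 0.26) and Rtp4 (-1.77 ± 0.41). Of all genes 4.53% were called in that comparison in either direction.

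**Figure D5:**
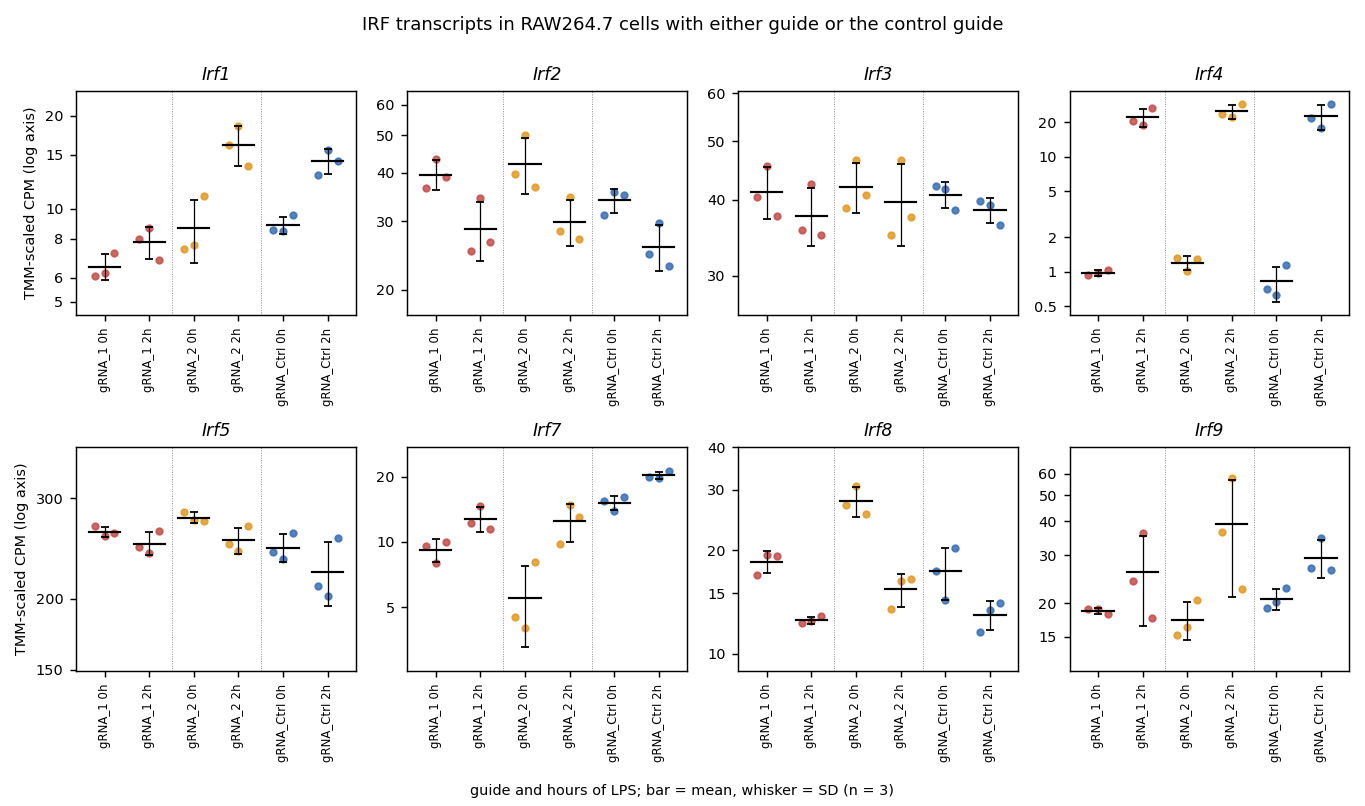
TMM-scaled CPM (log axis) of the 8 members in RAW264.7 cells with gRNA_1, gRNA_2 or gRNA_Ctrl at 0 h and 2 h of LPS; each point is a library, bars are means and whiskers SD (n = 3). Irf4 stands at 17.7 to 29.05 CPM at 2 h and at 0.621 to 1.31 CPM at 0 h, and Irf7 at 0 h is lower in each gRNA_1 and gRNA_2 library than in each gRNA_Ctrl library.

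Across the 19 groups, each experiment centred on its own mean, the genes whose log2 level ran most like each member were named over 12335 genes tested in all 3 experiments. They are a description over points that share libraries and treatment. For Irf7 these were Xaf1 (Pearson r = 0.980), Ifi44 (0.973) and Ifit3 (0.969), and for Irf9 Oasl1 (0.973), Rsad2 (0.970) and Slfn8 (0.967). For Irf1 they were Filip1l (0.968), Dnaja1 (0.944) and Slc2a6 (0.940), and for Irf2 Rbl1 (0.985), Asb13 (0.983) and Cenpj (0.973). For Irf4 they were Cish (0.985), Actg1 (0.985) and Pde4b (0.984), and for Irf8 Crip1 (0.949), Loxl3 (0.941) and Stard7 (0.930). Irf5 had Senp1 (0.904), Ppp6r1 (0.872) and Syngr2 (0.862) and Irf3 had Ddb2 (0.876), Ddx51 (0.830) and Zbtb11os1 (0.818), the least alike neighbours of the 8.

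By GENCODE release M21 on GRCm38 the genes lie at chr11:53770014-53778374 (Irf1, plus strand), chr8:46739732-46847458 (Irf2, plus), chr7:44997648-45002848 (Irf3, plus), chr13:30749226-30766976 (Irf4, plus), chr6:29526625-29541871 (Irf5, plus), chr7:141262706-141266481 (Irf7, minus), chr8:120736358-120756694 (Irf8, plus) and chr14:55603571-55610030 (Irf9, plus). Exons of Irf1, Irf3, Irf5 and Irf7 overlap exons of Gm17334, Bcl2l12, Tnpo3 and Phrf1 on the opposite strand, and exons of Irf9 overlap Rnf31 on the same strand. Whether counting used the strand is not given, so a part of those counts may belong to the neighbours.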

How the data were processed

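Per the labels' protocols, RNA was extracted with Trizol, treated with DNase and made into libraries with a stranded polyA kit. The authors deposited raw read counts per gene, made with STAR and HOMER on mm10 per the submitters' processing notes, which also name DESeq2, all without versions. Whether counting used the strand was not given in the sources used here. The repeat table was not used.

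From the deposited counts of 65 libraries each experiment was fitted alone in edgeR 4.0.16 (R 4.3.3) with filterByExpr, TMM factors, 1 term per group and quasi-likelihood F tests. This left 14386 genes (untreated genotypes), 14475 (LPS) and 13078 (RAW264.7), and 14696 where WT groups were split by library set. P-values were adjusted by the Benjamini-Hochberg method over all genes, the threshold was 0.05 and every adjusted p is edgeR's unless DESeq2 (1.42.0) is named. SE is the log2 fold change over the root of F. Levels (CPM) are counts over library total times TMM factor, times 1e+06. Levels per kilobase used the longest principal transcript of GENCODE M21. Likeness used log2 CPM with a prior count of 2. The fits were tested on simulated data. Alternatives were DESeq2, other factors, library totals (added after seeing the data), no filter, only the compared groups, blocks of cohort or of set and cohort, each WT set alone, WT libraries of a cohort summed, and each library left out.

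Residuals of libraries with the same cohort number correlated at 0.451 on average with 18 of 18 pairs over 0.1 in untreated genotypes, 0.573 (9 of 9) in MyD88KO cells, 0.437 (9 of 9) and 0.373 (6 of 7) in the WT sets, 0.127 (5 of 9) in TrifKO cells and 0.123 (25 of 45) in RAW264.7 cells. Of 88 replicate pairs 0 were identical. The members, gene lists and tests were chosen with earlier results of these data known. The rule for named genes was all members, up to 4 list genes with the largest called change and up to 2 that did not pass, and 3 genes by likeness.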

Additional observations from a re-analysis of the deposited data

Results flagged for a closer look

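One library stood apart within its group: Irf3 had 51.8 CPM in WT replicate 3 at 4 h, while the other 5 libraries had 34.76 to 40.01 CPM. Such a gap was looked for in 24 sets of libraries, each 1 member in 1 WT group of the LPS experiment. This was the 1 set flagged, and chance alone gives about 1 in 20. Groups of 3 libraries were not tested.

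The response to LPS differed between genotypes for these members, by the test of the difference itself in edgeR. For TrifKO against WT cells at 4 h it was -4.21 for Irf7, -1.85 for Irf2, -1.76 for Irf1, -1.47 for Irf8 and -0.92 for Irf9. At 2 h it was -2.97 for Irf7, -1.38 for Irf1 and -1.04 for Irf9. For MyD88KO against WT cells at 4 h it was -1.17 for Irf4. For TrifKO minus MyD88KO cells at 4 h, each against WT cells of its own library set, it was -3.46 for Irf7, -1.58 for Irf2 and -0.78 for Irf9.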

How the results depend on the processing

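Small changes of Irf3 and Irf5 and small counts of called members depended most on the processing; the Irf7 and Irf2 differences of TrifKO cells at 4 h passed in every alternative run. With library totals in place of TMM factors 3 values changed sign: Irf3 in WT cells at 2 h against 0 h (-0.35), Irf5 in WT cells at 4 h against 0 h (-0.21) and Irf9 in MyD88KO against WT cells at 4 h (0.026). The cause was not tested beyond the shift of all genes given above.

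Numbers of called members moved by over 1.5 times as follows. For MyD88KO against WT cells at 0 h (0), DESeq2 and the high WT set gave 1 each; at 2 h (4), only the compared groups and the low set gave 0 each; at 4 h (7), library totals and the low set gave 4 each. For the MyD88KO response at 4 h (1) the set and cohort block and the high set gave 3 and the low set 0. For TrifKO at 4 h against 2 h (1) DESeq2 gave 2, the compared groups 0 and the set and cohort block 3. For TrifKO against WT cells at 2 h (4) the compared groups and the low set gave 2. For TrifKO minus MyD88KO at 2 h (0) DESeq2 gave 1, the cohort block 2 and the set and cohort block 4, and at 4 h (3) that block gave 6. For IfnarKO against WT cells (1) DESeq2 and the cohort block gave 2, and for Suv39h1KO IfnarKO against Suv39h1KO (1) DESeq2 and no filter gave 2 and the block 3. For gRNA_1 against gRNA_Ctrl at 0 h (0) DESeq2, no filter and the block gave 1 and the compared groups 2; at 2 h (1) the block gave 3 and the other 3 gave 2. For gRNA_2 at 0 h (2) the block gave 5, and at 2 h (1) the block gave 3 and the compared groups 0. Residuals of RAW264.7 libraries with the same cohort number correlated weakly (0.123 on average, 0.003 to 0.342), against -0.061 on average for different cohort numbers. Those of TrifKO libraries with the same cohort number varied from -0.256 to 0.731.

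Leaving out 1 library at a time gave 0 to 1 called members for IfnarKO against WT cells, 1 to 2 for Suv39h1KO IfnarKO against Suv39h1KO, 3 to 5 for MyD88KO at 2 h against 0 h, 0 to 2 for the MyD88KO response at 4 h, 3 to 4 for TrifKO at 4 h against 0 h, 0 to 2 for TrifKO at 4 h against 2 h, 2 to 4 for the TrifKO response at 2 h, 0 to 2 and 3 to 4 for TrifKO minus MyD88KO at 2 h and 4 h, 2 to 4 for gRNA_Ctrl and 2 to 5 for gRNA_1 at 2 h against 0 h, and 1 to 2 for gRNA_1 and 0 to 1 for gRNA_2 against gRNA_Ctrl at 2 h. Counts were lowest, and counting error largest, for Irf7 in the groups without the receptor and Irf4 in untreated RAW264.7 cells.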
